A study of Mus musculus with 6 samples.

Results

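The Serpina1 and Serpina3 genes of the mouse encode serpins, protease inhibitors of which many are secreted by the liver into plasma. Humans carry one gene for each family (alpha-1-antitrypsin and alpha-1-antichymotrypsin), whereas in the mouse each has multiplied into a row of near copies. The 10 genes described here were taken by symbol from a table of 55401 genes: Serpina3c, Serpina3f, Serpina3g, Serpina3k, Serpina3m and Serpina3n, and Serpina1a, Serpina1b, Serpina1c and Serpina1e. All 10 had a row, and their levels were followed in 6 poly(A) RNA-seq libraries of C57BL/6 mouse liver, with 2 libraries in each of 3 groups.

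The control group, libraries 1 and 3, carried no treatment beyond the name control. The APAP group, libraries 1 and 3, had received acetaminophen (APAP, a drug that injures the hepatocytes around the central veins at high dose) at 400 mg/kg for 6 h. The COS+APAP group, libraries 2 and 3, had received the same APAP injection after 2 doses of costunolide (COS, a sesquiterpene lactone made by plants) at 20 mg/kg, given 12 h and 40 min before it. The study asked how COS acts on liver injury by APAP. Age, sex and the vehicle of the controls were not given in the sources used here, no group received COS alone, and nothing says whether each library came from a separate animal, so p-values measure only the spread between these libraries. The groups were taken from the sample titles and treatment entries. One protocol sentence instead assigns the pretreatment to samples 5 and 6, which in the order of the sample list are the libraries titled as the APAP model. If that sentence were right, APAP and COS+APAP would be exchanged in every result. COS+APAP titles have another number prefix than those of the other groups, and any effect of that prefix and of COS cannot be told apart. The extraction text speaks of adipose tissue, but summed adipocyte marker levels lay between 2.40 and 11.64 FPKM and summed hepatocyte markers between 42558 and 57154 FPKM, so the libraries carried liver transcripts as labelled.

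Library totals lay between 71115112 and 76669799 estimated counts, and between 20658 and 20947 genes were above 0 in each library. Among small counts, 4 was the commonest value (766 to 990 genes, against 290 to 350 genes at 3), so a sequenced fragment was worth more than 1 count and the depth in fragments was below the totals. Levels are given as FPKM, fragments per kilobase of transcript scaled to library size, which can be compared between genes of different length. Log2 fold changes and adjusted p-values come from edgeR's quasi-likelihood test over 10051 genes with a mean of at least 1 FPKM, with Benjamini-Hochberg adjustment over all of them, and a gene was said to have risen or fallen below an adjusted p of 0.05. With 2 libraries against 2, an exact permutation test of a single gene could not go below 0.33. In bulk tissue, fewer cells of a type and less RNA per cell cannot be told apart.

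Serpins trap their target. An exposed stretch near the carboxyl end, the reactive centre loop, is cut by the protease, snaps into the body of the inhibitor and holds the protease in a covalent complex that liver receptors clear. The sequence of the loop sets which proteases are caught, so copies that share the rest of their coding sequence can have different targets. In the liver many members of both families, though not all, are products of hepatocytes under the control of C/EBP and other liver factors. Several members belong to the acute phase response, in which interleukin 6 acting through STAT3, with interleukin 1 and NF-kappaB, raises their transcription.

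The loops are shown because they are where the copies differ and because the results concern which copies are transcribed. They were read from the coding sequences of the GENCODE M21 mouse annotation, 5′ to 3′, between conserved segments on either side of the loop. In the Serpina1 family, capitals mark bases that differ from Serpina1a after alignment.
Serpina1a: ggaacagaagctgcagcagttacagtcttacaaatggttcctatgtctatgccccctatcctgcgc
Serpina1b: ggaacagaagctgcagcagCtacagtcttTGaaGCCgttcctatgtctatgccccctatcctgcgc
Serpina1c: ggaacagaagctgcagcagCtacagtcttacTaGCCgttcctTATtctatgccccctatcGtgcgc
Serpina1e: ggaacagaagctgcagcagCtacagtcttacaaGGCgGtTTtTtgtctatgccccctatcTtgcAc
Serpina1e, which had the largest fitted change of the 4 Serpina1 members after APAP, differed from Serpina1a at 10 of 66 aligned loop bases. Identity to Serpina1a was 84.8% in the loop and 97.4% in the coding sequence before it. The corresponding values of Serpina1c were 86.4% and 99.4%, and those of Serpina1b 90.9% and 97.3%.

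For the Serpina3 family, capitals mark bases that differ from Serpina3n or have no partner in it.
Serpina3n: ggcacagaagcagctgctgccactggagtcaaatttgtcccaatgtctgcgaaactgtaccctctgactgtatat
Serpina3k: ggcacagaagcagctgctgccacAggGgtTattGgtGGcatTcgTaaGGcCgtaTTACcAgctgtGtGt
Serpina3m: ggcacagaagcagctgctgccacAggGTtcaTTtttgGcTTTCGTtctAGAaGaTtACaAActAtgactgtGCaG
Serpina3f: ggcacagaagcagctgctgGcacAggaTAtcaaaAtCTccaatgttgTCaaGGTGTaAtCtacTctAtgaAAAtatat
Serpina3g: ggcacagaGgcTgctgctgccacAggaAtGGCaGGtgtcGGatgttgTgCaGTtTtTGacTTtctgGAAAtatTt
Serpina3c: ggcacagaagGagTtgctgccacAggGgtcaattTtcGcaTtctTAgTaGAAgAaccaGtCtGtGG
These loops were further apart. Identity to Serpina3n was 66.7% in the Serpina3m loop against 87.5% before it, and 68.5% in the Serpina3g loop against 89.6% before it. The part before the Serpina3g loop covers only 492 aligned bases, against 1098 for Serpina3m, because the Serpina3g coding sequence used was short. Serpina3k had 76.1% and 85.4%, Serpina3c 71.2% and 88.2%, and Serpina3f 79.2% and 87.0%. In all 9 comparisons within a family, that of Serpina1d with Serpina1a (86.4% and 97.1%) included, the loop was less alike than the part before it.

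Over the aligned coding sequences, the 5 Serpina1 genes (with Serpina1d, which is not among the 10) were 96.3% to 98.5% identical, with a median of 96.6% over 10 pairs. The 6 Serpina3 genes were 81.8% to 91.8% identical, with a median of 85.2% over 15 pairs, and pairs across the families 62.6% to 72.3%. The Serpina3g coding sequence used was short, at 747 bases against 1257 for Serpina3n, so its pairs cover only that part. The 72.3% is Serpina3g with Serpina1a over 739 aligned bases. Identity between copies bears on how far reads can be assigned. Of all stretches of 100 bases in the Serpina1c transcript, 58.5% also occur in a transcript of another gene, and the share was 49.9% for Serpina1a, 20.6% for Serpina1b and 14.8% for Serpina1e. In the Serpina3 family it was 6.1% for Serpina3m, 4.9% for Serpina3k, 4.6% for Serpina3g, 3.6% for Serpina3f, 0.2% for Serpina3n and 0.0% for Serpina3c. The split of reads among Serpina1 copies, Serpina1a and Serpina1c above all, is therefore uncertain, while that among most Serpina3 members rests mostly on sequence of their own. Serpina3m is less sure, since all 95 of its shared stretches are shared with Serpina3k. The shares come from a single transcript per gene, so other transcripts of the Serpina3m entry, which spans Serpina3k, are not covered. In control the mean was 4774 FPKM for Serpina3k and 86.16 for Serpina3m. How many Serpina3k reads entered the Serpina3m values was not tested.

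**Figure D1:**
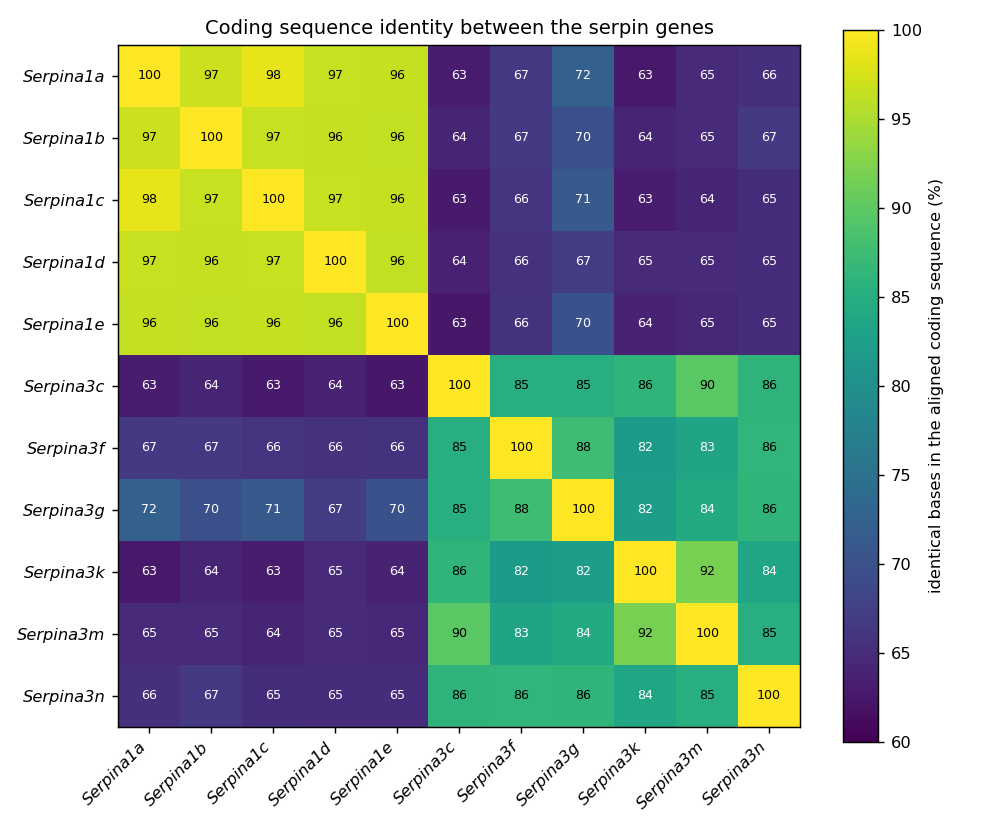
Percentage of identical bases in aligned coding sequences for each pair of the 10 genes and Serpina1d, as a heat map with genes on both axes and colour from 60% to 100%. The Serpina1 block lies at 96.3% to 98.5%, the Serpina3 block at 81.8% to 91.8%, and pairs across the families at 62.6% to 72.3%.

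Promoters are shown for 4 Serpina3 genes whose levels went different ways. They are the 250 bases before the start site in RefSeq (GRCm38.p6), 5′ to 3′ along the gene, with capitals marking matches on either strand to a STAT motif (TTCNNNGAA) or an NF-kappaB motif (GGGNN followed directly by TTNCC). Serpina3c lies on the minus strand (chr12:104153873-104154122), and Serpina3n (chr12:104406458-104406707), Serpina3f (chr12:104214294-104214543, the first of its 2 start sites) and Serpina3g (chr12:104235897-104236146) on the plus strand.
Serpina3c: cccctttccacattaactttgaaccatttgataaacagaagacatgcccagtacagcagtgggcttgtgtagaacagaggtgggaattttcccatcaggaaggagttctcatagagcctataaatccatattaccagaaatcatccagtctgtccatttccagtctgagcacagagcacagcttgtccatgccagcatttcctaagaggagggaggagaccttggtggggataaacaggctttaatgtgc
Serpina3n: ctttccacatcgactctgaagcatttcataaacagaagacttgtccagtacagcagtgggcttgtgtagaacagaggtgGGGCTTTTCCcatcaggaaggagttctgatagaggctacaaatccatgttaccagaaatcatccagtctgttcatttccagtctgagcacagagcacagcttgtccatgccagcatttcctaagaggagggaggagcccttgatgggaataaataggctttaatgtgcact
Serpina3f: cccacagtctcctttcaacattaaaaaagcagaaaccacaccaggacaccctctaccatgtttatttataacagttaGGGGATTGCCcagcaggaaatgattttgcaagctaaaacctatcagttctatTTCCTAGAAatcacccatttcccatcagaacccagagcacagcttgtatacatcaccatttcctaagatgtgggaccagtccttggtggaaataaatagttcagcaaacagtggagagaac
Serpina3g: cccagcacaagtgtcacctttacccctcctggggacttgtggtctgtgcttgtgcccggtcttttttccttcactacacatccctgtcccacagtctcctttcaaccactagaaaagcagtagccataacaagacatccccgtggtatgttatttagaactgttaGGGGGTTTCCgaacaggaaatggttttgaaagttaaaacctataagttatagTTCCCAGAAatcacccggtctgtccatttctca
Serpina3c and Serpina3n were 92.7% identical over 247 aligned promoter bases, with 18 mismatches, while Serpina3c stayed below 1 FPKM and Serpina3n above 100 FPKM in every library. The STAT motif was found in Serpina3f, 121 bases before the start, and in Serpina3g, 33 bases before it, and in none of the other members with a promoter sequence. Of 32851 mouse promoter windows reaching from 250 bases before to 50 bases after a start, 8.3% held a STAT match. NF-kappaB matches lay 173 bases before the first Serpina3f start, 85 bases before that of Serpina3g and 171 bases before that of Serpina3n, against 4.8% of all windows with one. The Serpina3g match overlaps a match to a C/EBP motif (TTNCNNAA), which was found at 8 of the 9 start sites of the 8 members with a promoter sequence and in 40.7% of all windows. Promoters of the 4 Serpina1 members were 92.3% to 98.0% identical to each other. No sequence is shown for Serpina3k and Serpina3m.

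All 10 genes lie in one stretch of chromosome 12. By the table's coordinates, 28 serpin genes of this clade (clade A) span 800 kb there, from 103614786 to 104414329, of which 15 are on the minus strand and 13 on the plus strand. The Serpina1 members run from Serpina1b (chr12:103728156-103740515) to Serpina1e (chr12:103946931-103958975), all on the minus strand, and the Serpina3 members from Serpina3c (chr12:104146382-104153870) to Serpina3n (chr12:104406729-104414329), on the plus strand apart from Serpina3c. The build of the table was not given in the sources used here. Start and end were identical to GENCODE M21 on GRCm38 for 94.2% of all genes and for 8 of the 10 members. The table gives Serpina3m and Serpina3k the same start, 104338486, so that the Serpina3m entry spans Serpina3k.

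Other transcripts lie among the members. Gm8893, an unprocessed pseudogene between Serpina1d and Serpina1a (chr12:103817856-103822243), had a mean of 281.2 FPKM and shares 100-base stretches with all 5 Serpina1 genes. B430119L08Rik (chr12:103895897-103898784), annotated as antisense and lying within Serpina1c, had a mean of 19.96 FPKM, and whether the counting used strand was not given in the sources used here. The other genes inside the Serpina1 span that are not Serpina1 genes had a mean of at most 0.015 FPKM.

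In control liver the levels of the 10 genes ran from near 0 to 5463.91 FPKM. Serpina3k was the highest, with FPKM of 5463.91 and 4084.55 in the control libraries. Serpina1c (3848.80 and 3660.18) and Serpina1e (3682.12 and 2386.89) came next, then Serpina1b (2770.26 and 2479.66) and Serpina1a (2518.06 and 2247.61). The ranges of Serpina1c and Serpina1e overlapped, as did those of Serpina1e with Serpina1b and Serpina1b with Serpina1a, so neighbours in this order among the Serpina1 genes did not differ beyond their spread. Serpina3n (128.56 and 101.11) and Serpina3m (87.01 and 85.30) followed without overlap. Serpina3g was at 2.01 and 1.82, Serpina3f at 1.10 and 0.52, and Serpina3c at 0.03 and 0.

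**Figure D2:**
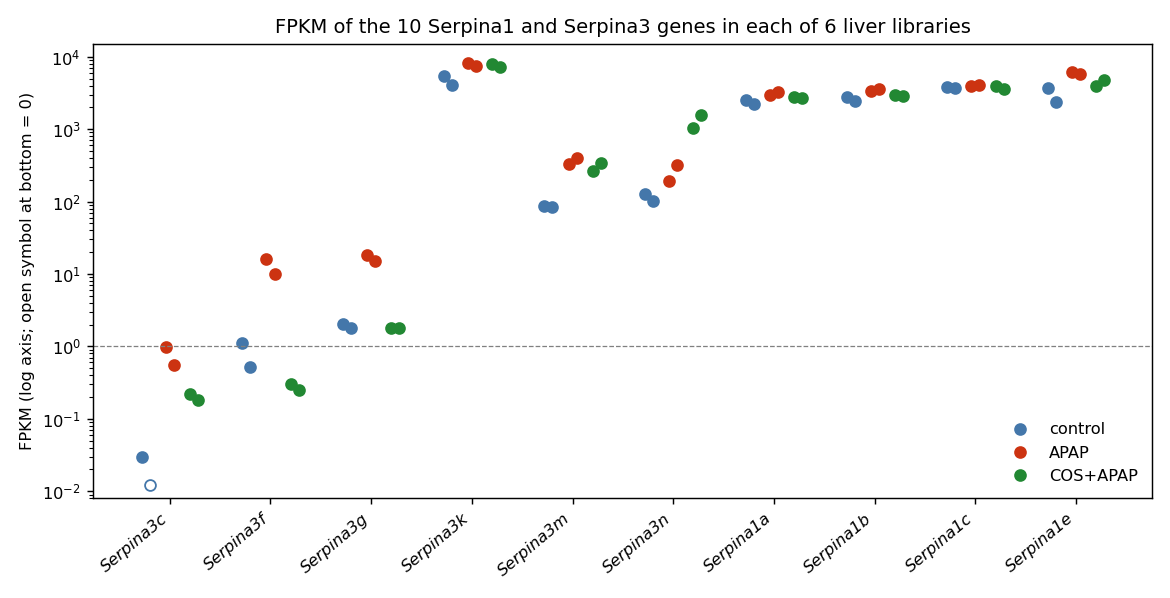
FPKM on a log axis for each of the 10 genes, with 1 point per library (2 control, 2 APAP, 2 COS+APAP), an open symbol at the bottom for a value of 0 and a dashed line at 1 FPKM. Serpina3f and Serpina3g stand apart in the APAP libraries, Serpina3n in the COS+APAP libraries, and the 4 Serpina1 genes stay between 2247.61 and 6090.36.

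Of the 10 members, 9 reached a mean of 1 FPKM and were tested, and Serpina3c, with a mean of 0.3267, was not. Serpina3f passed only through the APAP libraries (its mean over the other 4 was 0.5425), so that it had to differ, and it is left out of the counts that follow. After APAP, 7 of the other 8 rose and none fell, Serpina1c being the one that did not pass, beside 45.4% of all tested genes called in that comparison (23.3% higher and 22.1% lower). Counts at an unadjusted p under 0.05 and with DESeq2 were the same, 7 higher and 0 lower. Of all 10051 tested genes, DESeq2 called 2764 higher and 2706 lower there. The share of all genes at an unadjusted p under 0.05 was not computed. In COS+APAP against control, 2 of 8 rose (Serpina3m and Serpina3n) and none fell, with 4 higher and 0 lower at an unadjusted p under 0.05 and 6 higher and 0 lower with DESeq2. DESeq2 called 1698 of the 10051 genes higher and 1724 lower in that comparison. The edgeR count is close to the 21.0% of all tested genes called (10.7% higher and 10.3% lower). In COS+APAP against APAP, Serpina3n rose and Serpina3g fell, 2 of 8, which is again close to the 22.4% of all tested genes called (11.2% higher and 11.1% lower). The median log2 fold change of the 8 was 0.97, 0.51 and -0.20 in these 3 comparisons, beside 0.00, 0.02 and 0.01 over all tested genes. The comparisons share libraries, so they are not independent of each other.

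**Figure D3:**
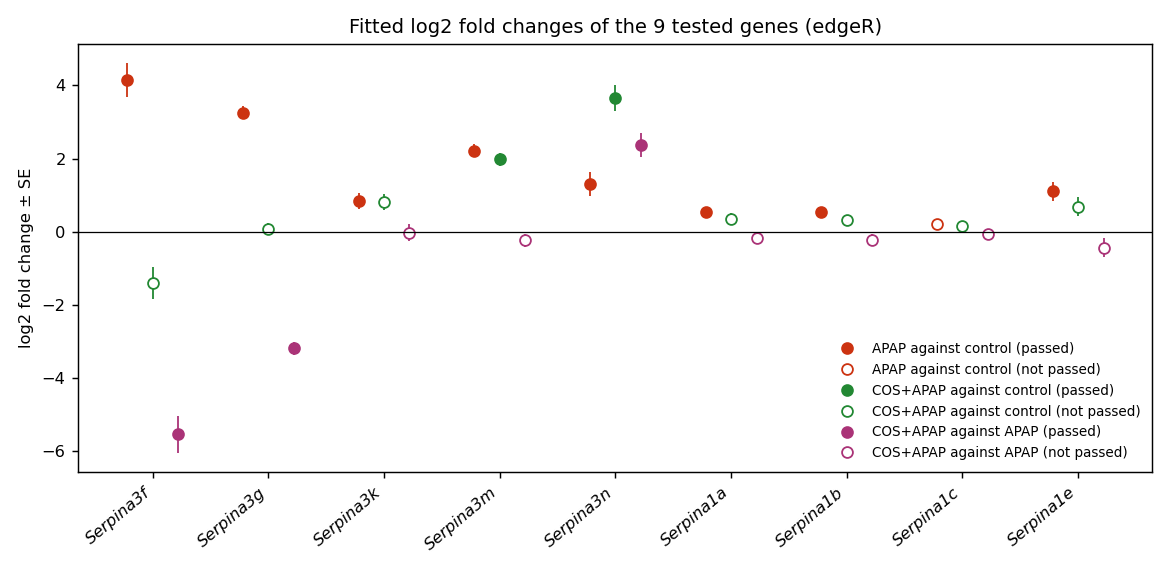
Fitted log2 fold change with its SE for the 9 tested genes in the 3 comparisons, filled where the adjusted p was below 0.05 and open where it was not. Serpina3f and Serpina3g are raised in APAP and far below 0 in COS+APAP against APAP, Serpina3n rises in both treated groups, and the Serpina1 genes stay within 1.11 of 0.

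Serpina3f and Serpina3g had the largest fitted differences of the 9 tested members after APAP and were near or below control level in the mice given COS first. Serpina3g, known as Spi2A, is an intracellular serpin of blood cells that inhibits lysosomal cathepsins. Its FPKM was 2.01 and 1.82 in control, 18.25 and 14.91 after APAP, and 1.82 and 1.77 after COS+APAP. Both APAP libraries lay far above the other 4, whose values ran together. It rose by 3.25 on the log2 scale after APAP (SE 0.18, 9.53-fold, adjusted p = 0.000914) and fell by 3.18 (SE 0.18, adjusted p = 0.00341) from APAP to COS+APAP. For COS+APAP against control it was 0.07 (SE 0.17, adjusted p = 0.799).

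Serpina3f, its neighbour on the plus strand, had FPKM of 1.10 and 0.52 in control, 15.96 and 10.03 after APAP and 0.30 and 0.25 after COS+APAP. The 3 groups did not overlap, and COS+APAP was the lowest. Its fitted log2 fold change was 4.14 (SE 0.46, 17.6-fold) for APAP against control, -5.54 (SE 0.50) for COS+APAP against APAP and -1.40 (SE 0.45) for COS+APAP against control. Since the filter let Serpina3f through only by its APAP libraries, its p-values are given from the fit without a filter, where the adjusted p was 0.00321, 0.00783 and 0.134 in the same order. The COS+APAP libraries held only 54 and 47 estimated counts of Serpina3f, so its level there rests on few fragments.

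Serpina3h and Serpina3i, further copies beside them, were below the filter and also highest in APAP. Serpina3h was at 0.98 and 1.60 FPKM in APAP and at most 0.07 elsewhere, and Serpina3i at 0.39 and 0.54 after APAP and at most 0.11 elsewhere. They share 100-base stretches with Serpina3f and Serpina3g.

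Markers of cells other than hepatocytes moved in the same libraries. Summed FPKM of the 7 monocyte markers was 4.14 to 5.32 in control, 19.08 to 35.91 after APAP and 5.65 to 5.69 after COS+APAP. The sum moved with Cd14 alone, at 1.21 and 0.85 in control, 31.76 and 14.51 after APAP, and 2.55 and 1.81 after COS+APAP. Cd14, 1 of the 2 tested, rose by 4.62 after APAP (adjusted p = 0.00218) and fell by 3.39 from APAP to COS+APAP (adjusted p = 0.0108). The neutrophil markers summed to 4.12 to 6.68, 10.77 to 32.20 and 2.59 to 4.04, with S100a9 called among 3 tested of 8 and Ly6g at 0 in all 6 libraries. Erythroid markers summed to 269.4 to 297.6, 1075 to 1492 and 309.3 to 316.4, and 4 of 5 tested rose after APAP. Endothelial markers summed to 42.62 to 46.59, 49.28 to 52.92 and 28.69 to 31.19, with 4 of 9 up after APAP. From APAP to COS+APAP 7 of 9 were down and 1 was up, Stab1 by 0.80 (SE 0.10, adjusted p = 0.00952). Kupffer cell markers summed to 92.38 to 103.4, 105.5 to 140.9 and 107.5 to 115.6, with 2 of 9 up after APAP. From APAP to COS+APAP 1 was up (Marco) and 1 down (Adgre1). Adgre1 was at 1.15 and 0.61 FPKM in control, 1.47 and 1.78 after APAP, and 0.40 and 0.63 after COS+APAP. Like Serpina3f, Adgre1 reached a mean of 1 FPKM only through APAP, so it had to be higher there. Genes behind the other marker counts were not screened for this. Beside these marker counts, 23.3% of all tested genes were called higher and 22.1% lower after APAP. From APAP to COS+APAP these shares were 11.2% and 11.1%. Stellate cell markers summed to 74.55 to 80.31, 82.33 to 84.68 and 32.25 to 54.11, and cholangiocyte markers to 28.51 to 34.44, 35.37 to 51.05 and 20.15 to 21. Pancreas markers were at most at 0.33 in sum. Lymphocyte markers stayed between 1.75 and 3.85 in sum, none of the 12 being high enough to test. The part of these cells in the Serpina3f and Serpina3g values was not tested.

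Serpina3n went the other way between the treated groups. It is a mouse counterpart of human alpha-1-antichymotrypsin, an acute phase protein known to inhibit granzyme B and neutrophil elastase in the mouse. FPKM was 128.56 and 101.11 in control, 193.45 and 323.91 after APAP, and 1031.85 and 1571.34 after COS+APAP. Every library of a group lay above those of the group before it, and the APAP pair was wide apart. The rise after APAP was 1.3 on the log2 scale (SE 0.32, 2.46-fold, adjusted p = 0.0231), that after COS+APAP was 3.66 (SE 0.35, 12.6-fold, adjusted p = 0.00454), and COS+APAP exceeded APAP by 2.36 (SE 0.33, 5.13-fold, adjusted p = 0.0113). The call for APAP against control was lost without control 1 (1.5, adjusted p = 0.0547), without control 3 (1.13, adjusted p = 0.105) or without APAP 3 (0.92, adjusted p = 0.0939). The call for COS+APAP against APAP was lost without APAP 1 (2.05, adjusted p = 0.052).

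Serpina3m and Serpina3k rose after APAP and stayed near that level with COS. Serpina3m was at 87.01 and 85.30 FPKM in control, 326.21 and 400.92 after APAP and 262.44 and 346.20 after COS+APAP. The treated groups overlapped, and both lay far above control. The log2 fold change was 2.21 (SE 0.18, 4.63-fold, adjusted p = 0.00147) after APAP and 1.98 (SE 0.18, 3.94-fold, adjusted p = 0.0043) after COS+APAP, and -0.23 (SE 0.18, adjusted p = 0.371) between the treated groups. Both calls against control were kept in all 17 alternative settings run.

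Serpina3k, the most abundant of the 10 in every library and a plasma inhibitor known to bind tissue kallikrein, rose from 5463.91 and 4084.55 FPKM in control to 8119.67 and 7343.94 after APAP. In COS+APAP it was at 7957.03 and 7129.37, which overlapped APAP. Its log2 fold change was 0.83 after APAP (SE 0.22, adjusted p = 0.0281), 0.81 after COS+APAP (SE 0.22, adjusted p = 0.0527) and -0.02 between them (SE 0.22, adjusted p = 0.956). The APAP call did not survive the loss of control 3 (0.63, adjusted p = 0.0653), APAP 1 (0.73, adjusted p = 0.141), APAP 3 (0.93, adjusted p = 0.0785) or either COS+APAP library, and the COS+APAP value passed in 5 of 17 alternatives. These were without control 1 (1.05, adjusted p = 0.0388), DESeq2 (0.80, adjusted p = 0.00103), upper quartile scaling (adjusted p = 0.0473), a mean FPKM of at least 5 (adjusted p = 0.028) and limma on log2(FPKM + 1) (adjusted p = 0.0486).

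Serpina3c was almost silent. The table lists 0.03 and 0 FPKM in control (6 and 0 estimated counts), 0.97 and 0.56 after APAP (170 and 104) and 0.22 and 0.18 after COS+APAP (37 and 34). The APAP libraries were the highest and the control libraries the lowest, with no overlap. When all genes were tested without the filter, the adjusted p was 0.0169 for APAP against control, 0.103 for COS+APAP against control and 0.268 between the treated groups.

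The 4 Serpina1 members encode alpha-1-antitrypsins, and 3 of them rose after APAP. Serpina1e had the largest fitted difference of the 4, with 3682.12 and 2386.89 FPKM in control, 6090.36 and 5808.95 after APAP and 3930.84 and 4778.41 after COS+APAP. The control libraries were wide apart and COS+APAP lay between the other groups. It rose after APAP by 1.11 on the log2 scale (SE 0.26, 2.15-fold, adjusted p = 0.0198), which was lost without APAP 1 (1.04, adjusted p = 0.0851) or APAP 3 (1.17, adjusted p = 0.064). COS+APAP against control gave 0.68 (SE 0.26, adjusted p = 0.122), but 1.04 without control 1 (adjusted p = 0.0458), and COS+APAP against APAP gave -0.43 (SE 0.26, adjusted p = 0.272).

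Serpina1a was at 2518.06 and 2247.61 FPKM in control, 2993.59 and 3258.86 after APAP and 2736.48 and 2721.37 after COS+APAP. Serpina1b had 2770.26 and 2479.66, 3367.71 and 3528.51, and 2941.83 and 2896.36. For both genes the groups did not overlap, with COS+APAP between control and APAP. Each rose after APAP by 0.53 (SE 0.15), at adjusted p = 0.0322 for Serpina1a and 0.0357 for Serpina1b. Neither call is firm: both were lost when scaled by library totals (0.38 each, adjusted p = 0.0797 and 0.0832), when scaled by upper quartiles, and in 5 of the 6 fits that left out a library, with adjusted p up to 0.14. COS+APAP against control was 0.35 (SE 0.15, adjusted p = 0.144) for Serpina1a and 0.31 (SE 0.15, adjusted p = 0.20) for Serpina1b.

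Serpina1c was the steadiest member. FPKM was 3848.80 and 3660.18 in control, 3897.02 and 4027.30 after APAP and 3890.13 and 3594.97 after COS+APAP, so COS+APAP overlapped control, and both APAP libraries lay just above the other 4. The log2 fold changes were 0.21 (SE 0.14, adjusted p = 0.256), 0.15 (SE 0.14, adjusted p = 0.48) and -0.06 (SE 0.14, adjusted p = 0.77) for APAP against control, COS+APAP against control and COS+APAP against APAP. Reads of Serpina1c can be shared with Serpina1a over most of its length, so its steadiness depends on how the authors' counting split them. Serpina1d, the copy outside the 10, was at 1902.12 and 1502.55 in control, 2492.34 and 2430.49 after APAP and 1694.28 and 1780.41 after COS+APAP, and rose after APAP by 0.67 (SE 0.17, adjusted p = 0.0237).

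Because copies share reads, the family sums are less open to that split. All Serpina1 genes of the table summed to 14721 and 12277 FPKM in control, 18841 and 19054 after APAP and 15194 and 15772 after COS+APAP. The groups did not overlap, and the mean was 1.40 times control in APAP and 1.15 times control in COS+APAP. Hepatocyte markers summed to 46871 to 47328 FPKM in control, 54996 to 57154 after APAP and 42558 to 44391 after COS+APAP, and their part in the Serpina1 sums was not tested. Within the family, the share of Serpina1e was 22.2% ± 3.94 (SD, n = 2) in control, 31.4% ± 1.3 after APAP and 28.1% ± 3.13 after COS+APAP. That of Serpina1c was 28.0% ± 2.59, 20.9% ± 0.32 and 24.2% ± 1.99.

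The Serpina3 genes summed to 5683 and 4273 FPKM in control, 8676 and 8096 after APAP and 9254 and 9049 after COS+APAP, which is 1.68 and 1.84 times control in the means. The treated groups differed little in sum but not in make-up. Serpina3k held 95.9% ± 0.401 (SD, n = 2) of the family's FPKM in control, 92.1% ± 2.04 after APAP and 82.4% ± 5.09 after COS+APAP. Serpina3n took 2.31% ± 0.0734, 3.12% ± 1.25 and 14.3% ± 4.39, and Serpina3m 1.76% ± 0.329, 4.36% ± 0.843 and 3.33% ± 0.70. Serpina3f and Serpina3g, whose fold changes were the largest after APAP, held at most 0.184% and 0.21% of the sum in any library. These sums and shares carry no test.

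**Figure D4:**
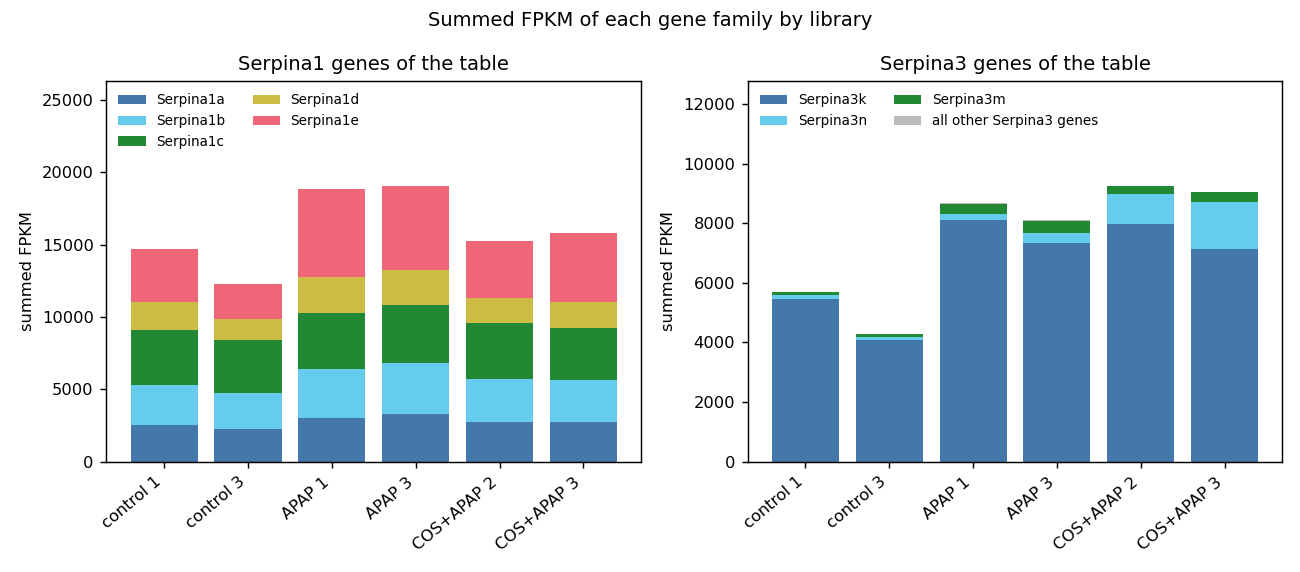
Stacked bars of FPKM by library for the 5 abundant Serpina1 genes (left) and for Serpina3k, Serpina3n, Serpina3m and all other Serpina3 genes (right). The Serpina1 sum is highest in the APAP libraries, at 18841 and 19054, and the Serpina3n layer is thickest in the COS+APAP libraries, at 1031.85 and 1571.34.

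Along the cluster, neighbours did not share one pattern. The 5 expressed Serpina1 genes and Serpina11 stayed within 1.11 on the log2 scale of control in both treated groups, and the Serpina3 genes at the far end split into Serpina3f and Serpina3g, Serpina3k and Serpina3m, and Serpina3n. At the other end lie Serpina10, the protein Z-dependent protease inhibitor, and Serpina6, corticosteroid-binding globulin. Serpina10 was at 44.77 and 41.13 FPKM in control, 29.79 and 27.35 after APAP and 85.40 and 72.64 after COS+APAP. It fell by 0.45 after APAP (SE 0.13, adjusted p = 0.0388) and rose by 1.03 after COS+APAP against control (SE 0.13, adjusted p = 0.00867). Serpina6 was at 184.07 and 175.30, 16.77 and 9.10, and 18.87 and 14.36. It fell by 3.65 after APAP (SE 0.35, adjusted p = 0.00176) and by 3.28 after COS+APAP (SE 0.34, adjusted p = 0.00519).

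**Figure D5:**
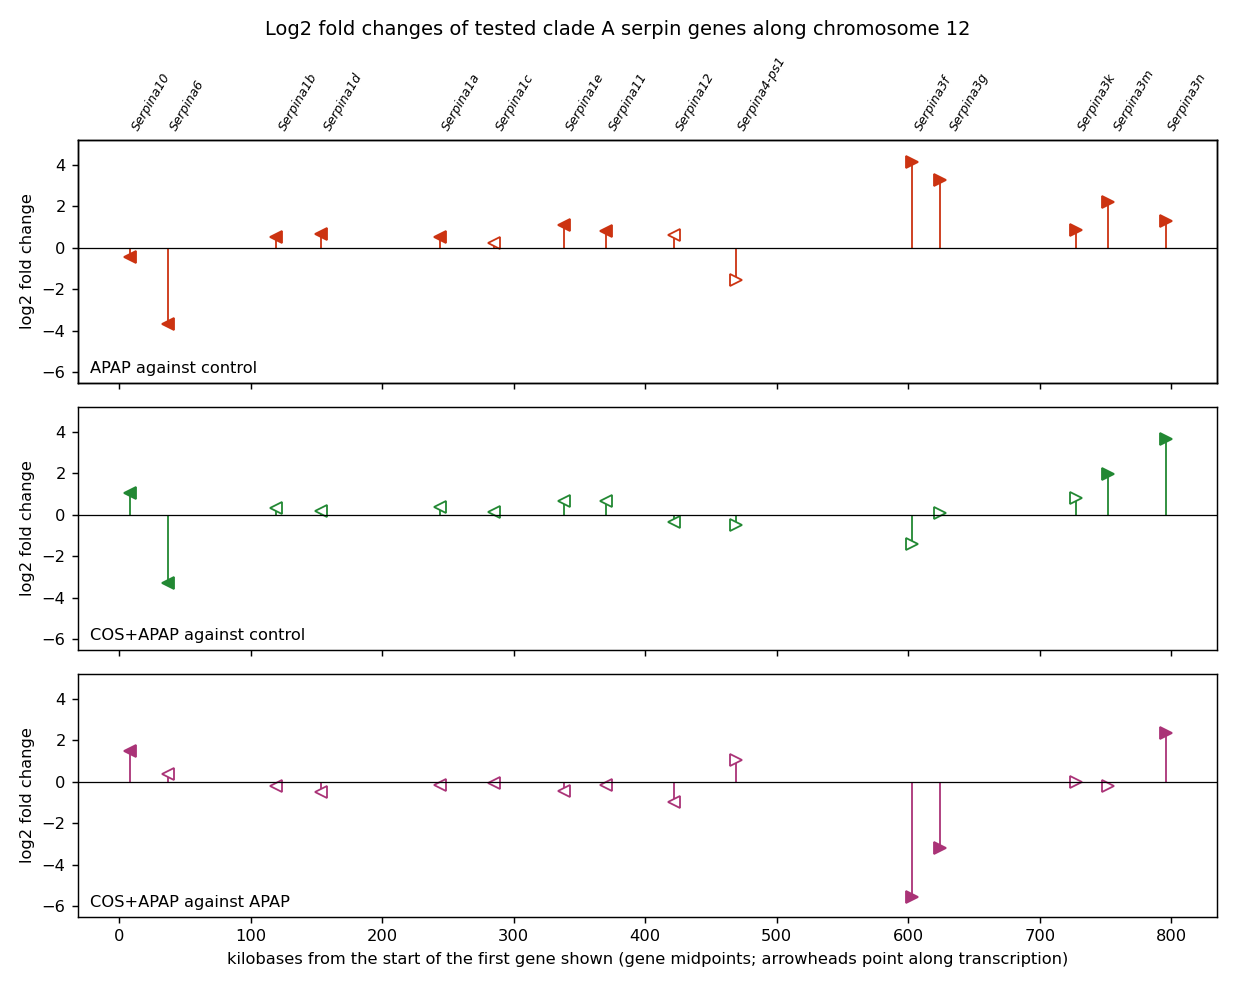
Log2 fold change (y axis) of the tested clade A serpin genes of chromosome 12 against the distance in kilobases from the start of the first gene shown (x axis), in 3 panels for the 3 comparisons, with filled symbols where the adjusted p was below 0.05 and arrowheads along transcription. Serpina6 is at -3.65 and -3.28 against control, and Serpina3f at 4.14 after APAP and -5.54 in COS+APAP against APAP.

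Of all 16 listed clade A serpins outside the 10, 7 were tested. After APAP 2 rose and 3 fell, after COS+APAP 1 rose and 1 fell against control, and 2 rose and none fell from APAP to COS+APAP (1 fell at an unadjusted p under 0.05 and 1 with DESeq2). Over all tested genes, 45.4%, 21.0% and 22.4% were called in these comparisons. Besides those given, Serpina11 rose after APAP by 0.82 (SE 0.20, adjusted p = 0.0229). Serpina7, thyroxine-binding globulin and the one clade A gene on another chromosome, X, was at 2.97 and 11.98 FPKM in control, 0.51 and 0.61 after APAP and 6.49 and 9.04 after COS+APAP. It fell by 3.58 after APAP (SE 0.68, adjusted p = 0.0101), with control libraries far apart. Serpina4-ps1 (-1.55, SE 0.68, adjusted p = 0.115) and Serpina12, or vaspin (0.63, SE 0.42, adjusted p = 0.263), did not pass after APAP. Serpina3a, Serpina3b, Serpina5 and Serpina1f were at most at 0.11 FPKM in any library, Serpina9 at most at 1.06, and Serpina3j and Serpina16 were listed at 0 in all 6.

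The pattern of each member over the 6 libraries was set beside all other tested genes by Pearson's r of log2(FPKM + 1), as a description with 3 groups behind 6 points. Serpina3n was most like Saa1, the serum amyloid A acute phase protein (r = 0.9987), with Syt12 and Bysl next. Saa1 was at 11.46 and 7.32 FPKM in control, 23.98 and 71.49 after APAP and 1095.00 and 2468.23 after COS+APAP. Serpina3g was most like Cd93, a receptor of endothelial and myeloid cells (r = 0.999), then Syf2 and Csrp1, and Cd93 was at 0.44 and 0.42, 2.66 and 2.32, and 0.42 and 0.47. Cd93 reached a mean of 1 FPKM only through APAP, and Syt12 only through COS+APAP. Each could be compared only because it was high there. With the APAP libraries left out, the means of Adm and Tshz2, named below, also fall under 1 FPKM. For Serpina3f the nearest were Fam53c (r = 0.9988), Elavl1 and Mpp6, for Serpina3k Pias2 (r = 0.9995), Tshz2 and Cdk7, and for Serpina3m Man2a2 (r = 0.9963), Pigm and Atrnl1. Serpina1a was nearest to Icmt (r = 0.9973), Egln2 and Hira, Serpina1b to Gm18541 (r = 0.9967), Hgs and Adm, Serpina1c to Rab43 (r = 0.9921), 1810044K17Rik and Fam76a, and Serpina1e to Ssrp1 (r = 0.9931) and Hmgxb3. Among the members themselves, r was 0.99 for Serpina3f with Serpina3g, 0.988 for Serpina1a with Serpina1b and 0.885 for Serpina3k with Serpina3m, whereas Serpina3n had -0.328 with Serpina3f and -0.221 with Serpina3g.

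Other acute phase proteins were listed because Serpina3n is one. Of 22 tested, 10 rose and 2 fell after APAP, 19 rose and 1 fell after COS+APAP against control, and 17 rose and none fell from APAP to COS+APAP (17 and 0 both at an unadjusted p under 0.05 and with DESeq2). Their median log2 fold changes were 0.52, 2.32 and 1.44. Over all tested genes, 23.3% were called higher and 22.1% lower after APAP. These shares were 10.7% and 10.3% after COS+APAP, and 11.2% and 11.1% between the treated groups. Saa1 rose by 2.47 (SE 0.65, adjusted p = 0.0275) after APAP and by 7.72 (SE 0.82, adjusted p = 0.00548) after COS+APAP. Saa2 was at 1.68 (SE 0.56, adjusted p = 0.0567) and rose by 8.93 (SE 0.77, adjusted p = 0.00372), and Lcn2, an iron-withholding lipocalin, rose by 4.06 (SE 0.48, adjusted p = 0.00276) and 7.08 (SE 0.55, adjusted p = 0.00336). Orm2, an orosomucoid, was at -0.33 (SE 0.30, adjusted p = 0.403) after APAP and rose by 4.11 (SE 0.34, adjusted p = 0.00352) after COS+APAP.

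Among 24 tested regulators of serpin transcription in the liver, 12 rose and 6 fell after APAP, 5 rose and 2 fell after COS+APAP against control, and 4 rose and 6 fell between the treated groups. The shares of all tested genes called in either direction were 45.4%, 21.0% and 22.4%. Il6 itself was listed at 0 in all 6 libraries. The interleukin 1 receptor Il1r1 rose by 2.66 (SE 0.36, adjusted p = 0.00374) after APAP and 3.07 (SE 0.36, adjusted p = 0.00717) after COS+APAP, and the C/EBP factor Cebpd by 2.44 (SE 0.32, adjusted p = 0.00354) and 1.57 (SE 0.31, adjusted p = 0.0237). Il6ra, the interleukin 6 receptor, rose by 0.90 and 1.69 (SE 0.20 each, adjusted p = 0.0155 and 0.00717), and was higher in COS+APAP than in APAP by 0.79 (SE 0.20, adjusted p = 0.0409). Socs3, the feedback inhibitor of that receptor, rose by 2.44 after APAP (SE 0.40, adjusted p = 0.0063) and fell by 1.60 from APAP to COS+APAP (SE 0.39, adjusted p = 0.0375).

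Of 14 tested proteases that these inhibitors can meet, 4 rose and 2 fell after APAP, 4 rose and 1 fell after COS+APAP, and 1 rose and none fell between the treated groups (1 fell at an unadjusted p under 0.05 and 1 with DESeq2). After APAP this is close to the 45.4% of all tested genes called. In the other 2 comparisons 21.0% and 22.4% of all tested genes were called. Ctsl, or cathepsin L, rose by 1.97 (SE 0.23, adjusted p = 0.00254) and 2.22 (SE 0.23, adjusted p = 0.00507) against control in the treated groups, and F11, coagulation factor XI, fell by 1.32 after APAP (SE 0.17, adjusted p = 0.0034). The leukocyte and mast cell proteases Ctsg, Cma1 and Mcpt4 were listed at 0 in all 6 libraries. The clearance receptors Lrp1, Asgr1 and Asgr2 were all tested and none passed in any comparison by edgeR. At an unadjusted p under 0.05 none passed after APAP, 1 was higher and 1 lower after COS+APAP, and 1 was higher from APAP to COS+APAP, while DESeq2 called 0, 1 lower and 2 higher.

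Other secreted inhibitors numbered 21 tested, of which 9 rose and 2 fell after APAP, 7 rose and 2 fell after COS+APAP, and 2 rose and 4 fell between the treated groups. These counts, and those of the intracellular serpins below, stand beside 45.4%, 21.0% and 22.4% of all tested genes called. Itih4, an inter-alpha-trypsin inhibitor chain of the acute phase, had the order of Serpina3n, at 177.76 and 177.08, 304.72 and 309.86, and 721.59 and 970.35, with 0.93 (SE 0.18, adjusted p = 0.0099) after APAP and 2.41 (SE 0.18, adjusted p = 0.00329) after COS+APAP. Of 4 tested intracellular serpins 1 rose and 1 fell after APAP. Serpinh1, the collagen chaperone, was down at -1.30 (SE 0.21, adjusted p = 0.00593). Serpinb6a, counted as risen, was up by 1.65 (SE 0.20). It was at 0.74 and 0.61 FPKM in control, 1.76 and 2.06 after APAP, and 0.86 and 1.05 after COS+APAP. Like Serpina3f, Serpinb6a reached a mean of 1 FPKM only through APAP, so it had to differ and its p-value is left out.

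Secreted serpins fold in the endoplasmic reticulum, where alpha-1-antitrypsin is a classical client of cargo receptors and of the disposal of misfolded glycoproteins. All 28 listed genes of this machinery were tested. After APAP 6 rose and 8 fell, after COS+APAP 7 rose and 3 fell against control, and 13 rose and 2 fell from APAP to COS+APAP. The APAP count is close to the 45.4% of all tested genes called. In the other 2 comparisons that share was 21.0% and 22.4%. Hspa5, the chaperone BiP, rose by 2.19 (SE 0.39, adjusted p = 0.00829) and 1.79 (SE 0.39, adjusted p = 0.0295) against control in the treated groups. Calr, or calreticulin, was at 541.70 and 473.43 FPKM in control, 153.61 and 155.94 after APAP and 390.63 and 389.77 after COS+APAP. It fell by 1.58 after APAP (SE 0.13, adjusted p = 0.00144). Derl3, a part of the disposal channel, was at 10.12 and 4.73, 0.07 and 0.36, and 3.27 and 4.28, and it fell by 4.89 (SE 0.79, adjusted p = 0.0062) after APAP. Both rose from APAP to COS+APAP, Calr by 1.35 (SE 0.13, adjusted p = 0.00589) and Derl3 by 4.07 (SE 0.77, adjusted p = 0.0211).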

How the data were processed

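The authors deposited 1 table with StringTie's estimated counts and FPKM per gene. HISAT2 2.0 and StringTie 1.3.0 are named in the submitters' processing notes, and the build and strand setting were not given in the sources used here. Columns were matched to samples by title. 6 further FPKM columns matched none and were not used. The deposited estimated counts were whole numbers and entered edgeR 4.0.16 (R 4.3.3) unchanged, with TMM scaling, 1 model of 3 groups over 6 libraries (3 residual degrees of freedom), a mean FPKM of at least 1 and a two-sided quasi-likelihood F test with Benjamini-Hochberg adjustment over all 10051 genes. SE is the absolute log2 fold change over the square root of F. The script was tested on simulated data. DESeq2 1.42.0, limma 3.58.1, other scalings and filters, and leaving out each library were alternatives. The text names all 10 members, the other clade A serpins, at most 3 called genes with the largest change per list and comparison, the 3 tested genes nearest each member by correlation, and genes lying among the members; a few named by this rule are not reported here. The members and lists were chosen with earlier results of these data known. Sequences were aligned with Biopython 1.88 and come from GENCODE M21 or RefSeq.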

Additional observations from a re-analysis of the deposited data

How the results depend on the processing

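None of the member log2 fold changes that passed the test changed sign in any alternative run, and values that did not pass changed sign only near 0, between -0.10 and 0.09 for Serpina3g, Serpina1c and Serpina3k. After APAP, the calls of Serpina3g and Serpina3m were kept in all 17 alternatives, while a mean FPKM of at least 5 left Serpina3f untested. Genes called numbered 4561, 2109 and 2249 (APAP against control, COS+APAP against control, COS+APAP against APAP) and members called 8, 2 and 3 of 9 tested. Member counts in this section include Serpina3f wherever it was tested, although it passed the filter only through APAP. Without it, of 8 tested, 7 rose in the first comparison, 2 rose in the second, and 1 rose and 1 fell in the third. With a mean FPKM of at least 5, fewer genes were tested and 2301, 1295 and 1093 were called. DESeq2 called 3422 genes and 7 members (6 without Serpina3f) in COS+APAP against control and 3552 genes in COS+APAP against APAP. With only the 2 groups compared in the fit, 5 members were called after APAP. Leaving out 1 library gave 3 to 7, 2 to 4 and 2 to 3 members and 3044 to 4117, 590 to 1724 and 612 to 1941 genes, with fewer samples in each fit. The lowest gene counts came without APAP 1, COS+APAP 3 and COS+APAP 2 in that order. Where 1 library was left in a group, it was assumed to vary like the others.

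The deviations of control 1 and APAP 1 from their group means correlated at 0.017 over 10051 genes, so no pairing by replicate number was seen between these groups. With 2 libraries per group this is a single correlation, which could not exclude pairing. With the replicate block, 3, 1 and 1 members were called, and 139 and 31 genes in the COS+APAP comparisons. Listed members alone gave Serpina1 sums of 16486 FPKM in APAP and 13745 in COS+APAP.

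Scaling by library totals shifted the median log2 fold change of all genes by -0.15 (APAP against control) and -0.17 (COS+APAP against control), and the share of higher calls went from 51.3% to 40.0% and from 50.9% to 30.4%. Upper quartile scaling shifted it by -0.12 (42.2% higher) and by 0.11 in COS+APAP against APAP (62.8% against 50.2%). With limma on log2(FPKM + 1), the shares against control were 40.7% and 29.4%. FPKM ratios carry this shift. The limits of depth are the few fragments of Serpina3c and Serpina3f outside APAP and 2 libraries per group.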
